A study of Mus musculus with 6 samples.

Results

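The leukocyte chemokine receptors Ccr6, Ccr7, Ccr9, Cxcr3, Cxcr5 and Cxcr6, grouped as lymphoid, and Ccr1, Ccr2 and Cx3cr1, grouped as myeloid, were compared between the lungs of R/R and WT mice. The 9 genes were taken by symbol from a table of 56262 genes. All 9 were among the 17120 genes with enough read pairs to be tested. Bulk lung tissue of untreated mice at 8 weeks of age was sequenced, from 3 R/R and 3 WT animals. R/R mice carried the RBM47 substitutions K329R and K332R on both alleles in every cell, introduced by CRISPR/Cas editing on the C57BL/6 background. WT mice were littermates with both RBM47 alleles intact. The 3 mice of each genotype were described as biological replicates. RBM47 is an RNA-binding protein, and the substitutions remove the lysines to which the ubiquitin-like protein ISG15 is attached.

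Chemokines are small secreted proteins that guide leukocytes through blood, lymph and tissue. Their receptors cross the cell membrane, couple to inhibitory G proteins and turn a gradient of chemokine into directed movement. CCR7 leads naive lymphocytes and mature dendritic cells toward lymph nodes, CXCR5 and CCR6 guide B cells, CXCR3, CXCR6 and CCR9 are carried by subsets of T cells, CCR2 brings classical monocytes out of the bone marrow, CX3CR1 marks patrolling monocytes, and CCR1 is carried by monocytes and neutrophils.

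Library totals ran from 16501092 to 18141067 counted read pairs. Values are given as CPM, read pairs of a gene relative to the library total, scaled by edgeR's TMM factors, and 3 read pairs corresponded to between 0.165 and 0.182 CPM. Rbm47 itself lay from 32.7 to 34.1 CPM across R/R lungs and from 28.8 to 34.4 CPM across WT lungs (log2 fold change 0.10, adjusted p = 0.66, edgeR's quasi-likelihood test). Gene counts do not show the substituted codons, so the genotype labels were not checked by these values. Lung markers such as Sftpc, Scgb1a1 and Pecam1 were high in all 6 lungs, and the thymus markers Rag2 and Foxn1 and the lymph node marker Glycam1 had no read pair in any lung, which allows up to 0.182 CPM. Other markers of these tissues were detected. The 9 thymus markers summed to 0.776 to 2.45 CPM a lung and the 5 lymph node markers to 4.49 to 10.1 CPM. Among them, 1 thymus marker (Tbata) and 2 lymph node markers (Chst4 and Fcamr) had enough read pairs to be tested.

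Of the 9 receptors, 4 lie on a short stretch of chromosome 9 with other receptor genes (coordinates are of GRCm38, from GENCODE M25). Ccr9 lies at chr9:123678439-123784330 and Cxcr6 at chr9:123806475-123811760, both on the plus strand. They are followed by Xcr1, Ccr1 (chr9:123962124-123968692, minus strand), Ccr3 and Ccr2 (chr9:124101950-124113557, plus strand). Cx3cr1 (chr9:119901616-120069879, minus strand) and Cxcr5 (chr9:44511787-44561877, minus strand) lie elsewhere on the same chromosome. Ccr6 lies at chr17:8236043-8257141 on the plus strand, Ccr7 at chr11:99144196-99155077 on the minus strand and Cxcr3 at chrX:101731535-101734269 on the minus strand.

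The counting ignored strand. Exons of Ccr9 overlap those of other genes over 21.5% of their length, mostly those of AC165425.1 on the opposite strand. For Cxcr5 the overlap is 3.30% (Bcl9l) and for Cx3cr1 1.73% (Gm33858). The Ccr9 values are therefore uncertain, since pairs on exons of several genes were left out and strand did not separate the rest.

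Promoters from RefSeq (GRCm38.p6, 250 bases before to 50 bases after a gene's start) were found for 7 of the 9 receptors, 8 promoters in all. Ccr7 and Cxcr5 had no entry. The promoters of Cx3cr1 and Ccr6 are shown because each R/R lung lay below each WT lung for these genes. The capitals mark the letters TGTGGT, read on either strand, which transcription factors of the RUNX family bind. The Cx3cr1 promoter is chr9:120068247-120068546 (minus strand), and the first of the Ccr6 promoters is chr17:8235793-8236092 (plus strand). The other Ccr6 promoter, chr17:8242276-8242575, held 0 of the motifs searched and is not shown:
Cx3cr1: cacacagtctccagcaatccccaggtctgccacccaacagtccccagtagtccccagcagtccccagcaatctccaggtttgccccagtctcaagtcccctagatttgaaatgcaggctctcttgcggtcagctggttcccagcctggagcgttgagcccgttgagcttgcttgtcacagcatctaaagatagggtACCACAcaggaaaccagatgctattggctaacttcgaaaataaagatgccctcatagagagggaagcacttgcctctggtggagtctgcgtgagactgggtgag
Ccr6: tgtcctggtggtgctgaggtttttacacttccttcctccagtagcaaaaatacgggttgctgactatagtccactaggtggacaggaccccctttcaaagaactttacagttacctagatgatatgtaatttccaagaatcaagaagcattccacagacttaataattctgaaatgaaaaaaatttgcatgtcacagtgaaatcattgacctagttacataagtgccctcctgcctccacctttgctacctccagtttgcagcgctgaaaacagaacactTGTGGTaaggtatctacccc
The letters begin at -54 from the start of Cx3cr1 and at 31 after the first start of Ccr6. Positions count the start as 1, and no base is numbered 0. The letters stood in 5 of the 8 promoters (Ccr1, the first of Ccr6, Cx3cr1, Cxcr3 and Cxcr6), against 16.8% of all 32851 promoters. GAGGAAGT, which PU.1 binds, was found for Cxcr3 (3.20% of all promoters), and GAAANNGAA, which interferon regulatory factors bind, for Ccr2 (8.56%). The E-box CACGTG was in none of the 8 (7.15% of all). These matches describe letters in a window, not bound sites.

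The question of the comparison was which receptor transcripts differed between R/R and WT lungs. Estimates are log2 fold changes of R/R against WT lungs, with their standard errors (SE). The estimates of 8 of the 9 receptors were below 0 and that of Ccr9 was above 0, where 48.8% of all tested genes had a negative log2 fold change. None of the 9 passed an adjusted p of 0.05 (edgeR's quasi-likelihood test, Benjamini-Hochberg over 17120 genes), a level at which 1.75% of all tested genes were called. DESeq2 called 1 of them (Cx3cr1), and edgeR's exact test and limma-voom called 0. At an unadjusted p of 0.05, 5 receptors were lower in R/R lungs (Ccr1, Ccr2, Ccr6, Ccr7 and Cx3cr1), against 7.68% of all genes. In either direction, 2433 of the 17120 genes had an unadjusted p under 0.05 by edgeR's quasi-likelihood test, the background for the lists below. Every R/R lung lay below every WT lung for Ccr6, Ccr7 and Cx3cr1, 3 of 9, against 9.5% of all genes. The median log2 fold change of the 9 was -0.38, and that of all tested genes was 0.0045. With a single lung left out, the number of receptors with a negative estimate lay between 7 and 9. The number lower at an unadjusted p of 0.05 came to 3 without R/R replicate 3, to 3 without WT replicate 1 and to 1 without WT replicate 3.

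**Figure D1:**
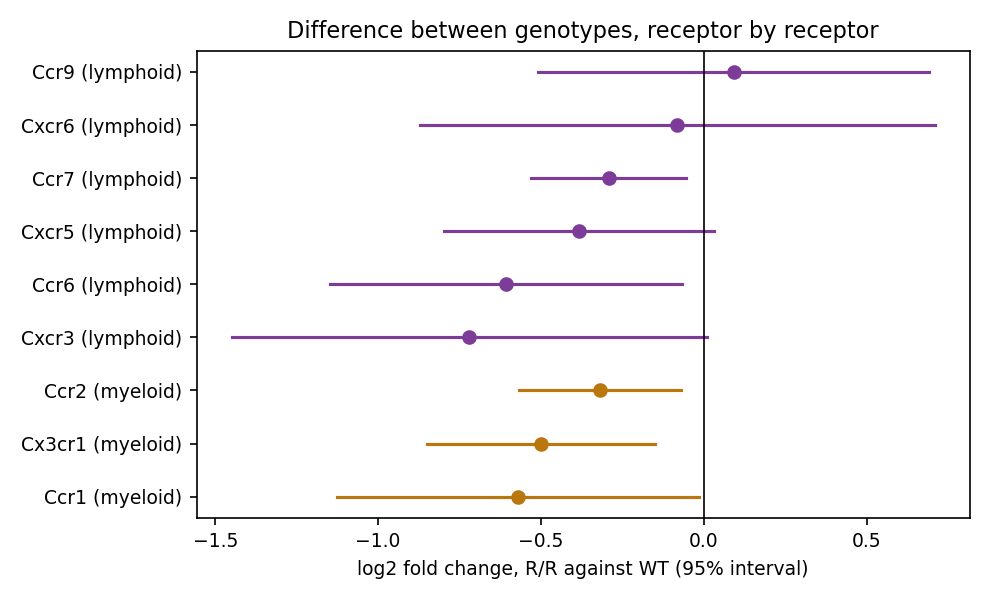
Log2 fold change of each receptor, R/R against WT (x axis), with its 95% interval from edgeR's quasi-likelihood fit. The intervals of Ccr1, Ccr2, Cx3cr1, Ccr6 and Ccr7 lie below 0, those of Cxcr3 and Cxcr5 reach just past it, and those of Cxcr6 and Ccr9 are centred near 0.

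Ccr7, the receptor for the lymph node chemokines CCL19 and CCL21, stood at 12.4, 12.7 and 11.3 CPM across R/R lungs and at 14.9, 13.7 and 15.9 CPM across WT lungs, each in the order of the replicate numbers, as for all genes here. All 3 R/R lungs lay below all 3 WT lungs, and the replicates of each genotype were close together. The estimate was -0.29 (SE 0.11), a difference of -18.3%, at an adjusted p of 0.238 by edgeR. The exact permutation test of the 6 lungs gave p = 0.1, the smallest value that 3 against 3 allows.

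Ccr6, the receptor for CCL20 on B cells and on T cells of the type 17 kind, stood at 1.78, 1.73 and 1.88 CPM across R/R lungs and at 3.34, 2.21 and 2.69 CPM across WT lungs. These values rest on 29 to 32 read pairs in R/R lungs and 40 to 55 in WT lungs. The R/R lungs were nearly equal and lay below every WT lung, with WT replicate 1 the highest. Its estimate was -0.61 (SE 0.25, 95% interval -1.15 to -0.07), at an adjusted p of 0.289 by edgeR.

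Cxcr5, which draws B cells and follicular helper T cells toward CXCL13, stood at 5.05, 8.01 and 5.54 CPM across R/R lungs and at 9.23, 7.34 and 7.67 CPM across WT lungs. R/R replicate 2 lay among the WT lungs, so the groups overlapped. With an SE of 0.19, the estimate of -0.38 had an adjusted p of 0.398 by edgeR.

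Cxcr3, carried by effector T cells and NK cells and bound by CXCL9, CXCL10 and CXCL11, stood at 0.943, 2.15 and 1.41 CPM across R/R lungs and at 2.61, 1.77 and 3.04 CPM across WT lungs. The groups overlapped through R/R replicate 2 and WT replicate 2. It had the most negative estimate of the 9, -0.72, but also a wide SE of 0.33 (adjusted p = 0.359 by edgeR), and R/R replicate 1 had 17 read pairs.

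Cxcr6, the receptor for CXCL16 on T cells that reside in tissue, stood at 3.88, 2.39 and 1.24 CPM across R/R lungs and at 1.88, 2.87 and 3.22 CPM across WT lungs. R/R replicates 1 and 3 were the highest and the lowest of the 6 lungs. The estimate was -0.08 (SE 0.36, 95% interval -0.87 to 0.71), and it was 0.24 without R/R replicate 3 and 0.07 without WT replicate 3. Ccr9, the receptor for CCL25 that is best known for homing to the gut, stood at 2.33, 3.59 and 2.0 CPM across R/R lungs and at 2.0, 2.48 and 2.93 CPM across WT lungs. The WT lungs lay within the range of the R/R lungs, and R/R replicate 2 was the highest. The estimate was 0.09 (SE 0.27, 95% interval -0.51 to 0.69), and it was -0.19 without R/R replicate 2 and -0.04 without WT replicate 1. The interval of Cxcr6 includes a difference as large as the estimate of Ccr6 and that of Ccr9 one as large as the estimate of Cx3cr1 (-0.50).

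**Figure D2:**
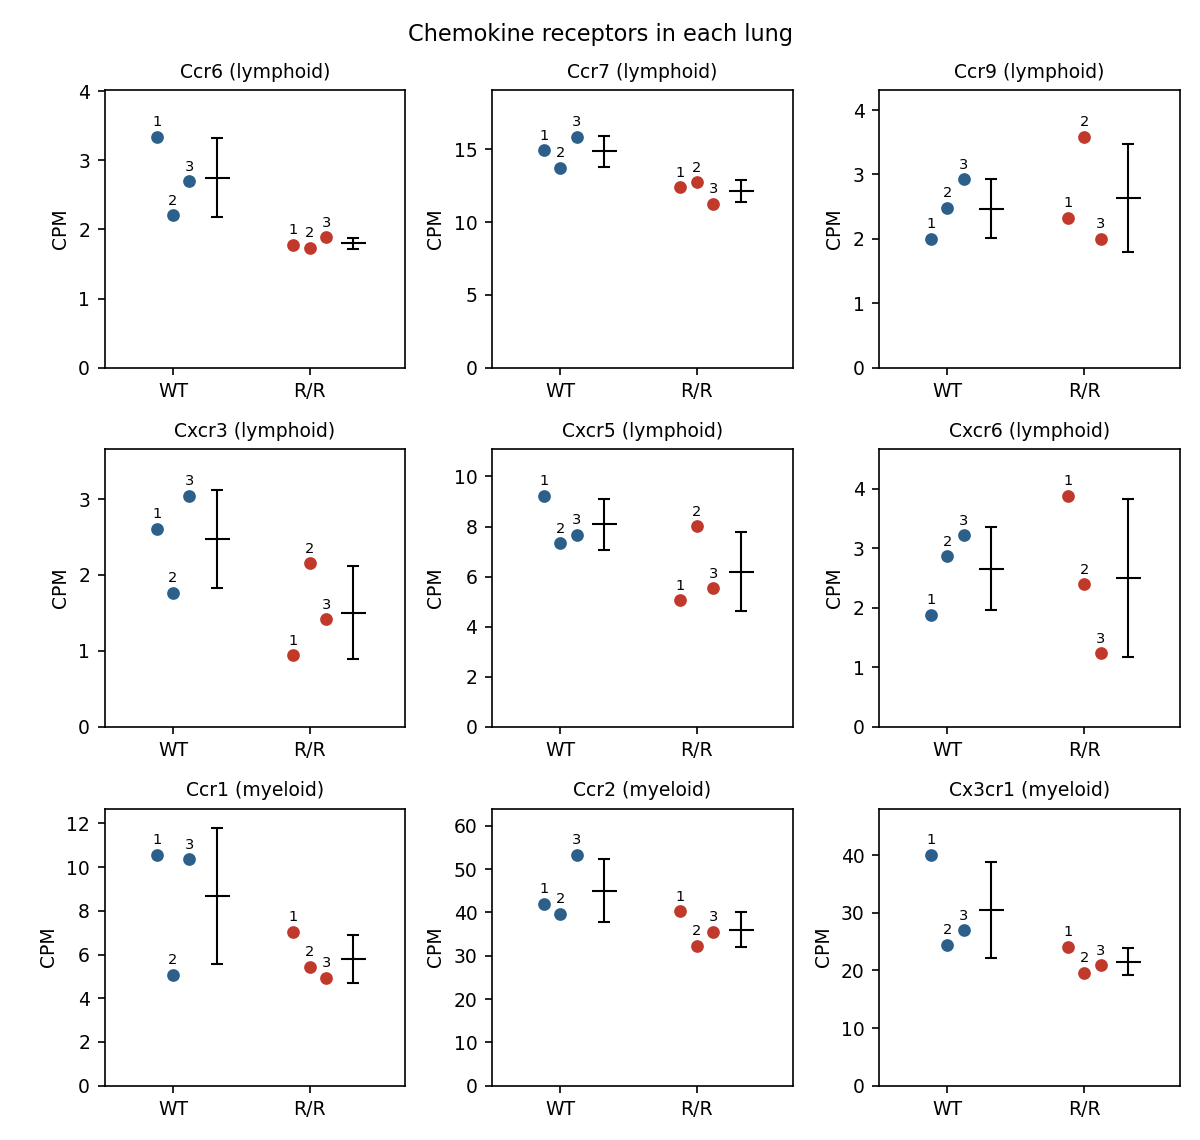
CPM of the 9 receptors (y axes, each from 0) in each WT and R/R lung, with replicate numbers beside the points and mean ± SD (n = 3) in black. The R/R points of Ccr6, Ccr7 and Cx3cr1 lie below all WT points, whereas WT replicate 2 lies at the level of the R/R lungs for Ccr1.

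Among the myeloid receptors, Cx3cr1, which binds the membrane-bound chemokine CX3CL1, stood at 24.1, 19.6 and 20.9 CPM across R/R lungs and at 40.1, 24.4 and 27.0 CPM across WT lungs. R/R replicate 1 lay just below WT replicate 2, and WT replicate 1 was well above all others. The estimate of Cx3cr1 was -0.50 (SE 0.16, 95% interval -0.85 to -0.15), and its adjusted p of 0.164 by edgeR was the lowest of the 9 receptors. DESeq2 gave an adjusted p of 0.0441 for Cx3cr1, and the 9 alternatives that kept all lungs gave values from 5.98e-05 to 0.219. With a single lung left out, the adjusted p lay between 0.0894 and 0.463.

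Ccr2, the receptor for CCL2 that releases classical monocytes into blood, stood at 40.2, 32.3 and 35.5 CPM across R/R lungs and at 42.0, 39.7 and 53.3 CPM across WT lungs. R/R replicate 1 was above WT replicate 2, and WT replicate 3 was the highest. Mean ± SD (n = 3) was 36.0 ± 3.97 CPM for R/R and 45.0 ± 7.29 CPM for WT lungs. The estimate of -0.32 (SE 0.11) did not pass the test (adjusted p = 0.216 by edgeR).

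Ccr1, a receptor for CCL3, CCL5 and CCL6, stood at 7.05, 5.44 and 4.95 CPM across R/R lungs and at 10.6, 5.08 and 10.4 CPM across WT lungs. WT replicates 1 and 3 stood above all other lungs, whereas WT replicate 2 was at the level of R/R replicates 2 and 3. Its estimate was -0.57 (SE 0.25, adjusted p = 0.338 by edgeR), and it was -0.85 without WT replicate 2 and -0.41 without WT replicate 1.

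Lymphoid and myeloid receptors were then set side by side. Of the 6 lymphoid receptors, 5 had negative estimates, with a median log2 fold change of -0.34, and all 3 myeloid receptors had, with a median of -0.50. Estimates ranged from -0.72 to 0.09 among lymphoid receptors and from -0.57 to -0.32 among myeloid receptors. Within each lung, the median deviation of the lymphoid receptors minus that of the myeloid receptors was -0.22, 0.43 and -0.05 in R/R replicates 1, 2 and 3 and -0.34, 0.07 and -0.15 in WT replicates 1, 2 and 3 (log2). These ranges overlapped widely, so the lungs did not separate by genotype in the balance of lymphoid to myeloid receptors. Without Ccr6 and Ccr7, the lymphoid median was -0.23.

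Per length, as RPKM (CPM per kilobase of exon), Ccr7 had the highest level of the 9 in WT lungs, 7.51 ± 0.54 (SD, n = 3), followed by Cx3cr1 at 6.77 ± 1.86 and Ccr2 at 6.66 ± 1.08. The ranges of these 3 overlapped one another. Ccr1 (3.06 ± 1.10) and Cxcr5 (2.43 ± 0.30) came next and overlapped each other, and below them Cxcr3 (1.43 ± 0.38), Cxcr6 (1.38 ± 0.36) and Ccr6 (1.18 ± 0.24) overlapped. Ccr9 was the lowest, 0.241 ± 0.045, apart from all others. In R/R lungs the same 3 receptors were at the top and Ccr9 was again the lowest, at 0.257 ± 0.081. Ccr2 stood above Cx3cr1 there (5.33 ± 0.59 and 4.78 ± 0.51), with overlapping ranges.

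The neighbouring receptors of chromosome 9 did not share one direction. The log2 fold change was 0.09 for Ccr9 and -0.08 for Cxcr6, and -0.57 for Ccr1, -0.36 for Ccr3 and -0.32 for Ccr2 further along. Between Cxcr6 and Ccr1 lies Xcr1, the receptor of cross-presenting dendritic cells, with a log2 fold change of 0.21. None of these genes passed the test.

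**Figure D3:**
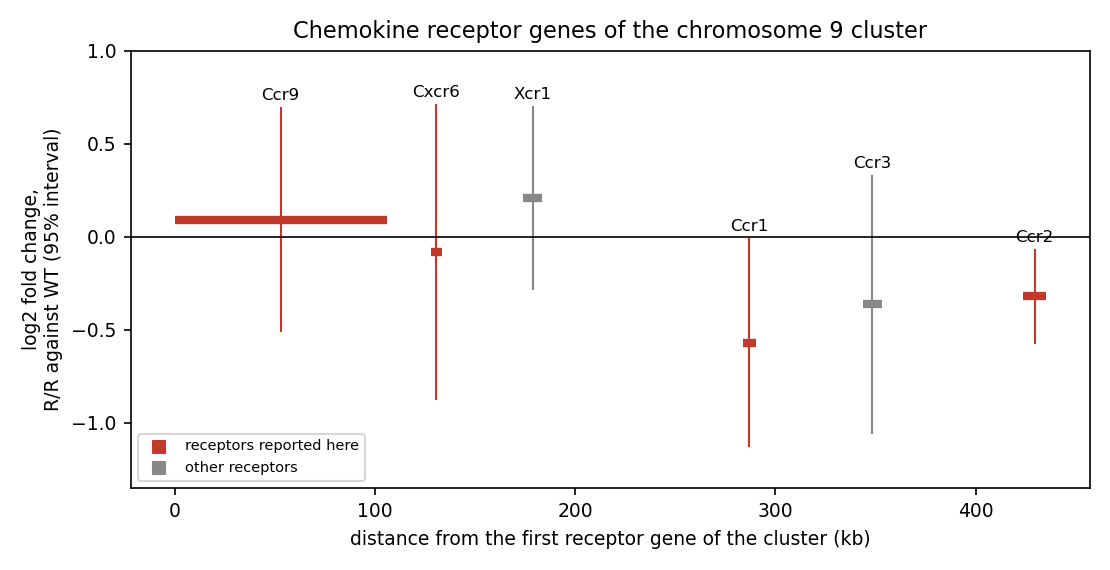
Log2 fold change (y axis, R/R against WT, thin line: 95% interval) of Ccr9, Cxcr6, Xcr1, Ccr1, Ccr3 and Ccr2 on chromosome 9 against distance in kb, with the thick bar spanning the gene. Receptors described here are in red and the others in grey. Ccr1 and Ccr2 have intervals below 0, whereas Xcr1 beside Ccr1 has an estimate above 0.

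Of the 10 other chemokine receptors in the table, 8 were tested, 5 had negative and 3 positive estimates, and 0 were called by edgeR's quasi-likelihood test, with 1 at an unadjusted p of 0.05 and 1 called by edgeR's exact test. That gene, Cxcr2, the neutrophil receptor for CXCL1 and CXCL2, stood at 5.72, 3.59 and 3.48 CPM across R/R lungs and at 16.3, 4.58 and 11.1 CPM across WT lungs, high in the same WT replicates as Ccr1. Its estimate was -1.31 (SE 0.37) at an adjusted p of 0.115 by edgeR, which became 0.0104 without WT replicate 2 and 0.400 without WT replicate 1. Over the alternatives that kept all lungs it lay between 4.63e-12 (no filter on low counts) and 0.258 (limma-voom). Cxcr4, which holds leukocytes in the bone marrow, had the highest CPM of the list and a log2 fold change of 0.09, and Ccrl2, a receptor that presents chemerin, one of -0.20. The 3 tested atypical receptors, which take up chemokines without G protein signalling (Ackr2, Ackr3 and Ackr4), had estimates between -0.18 and 0.22, with 0 called and 0 at an unadjusted p of 0.05.

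None of the 10 tested ligands of the receptors was called, by edgeR's quasi-likelihood and exact tests, DESeq2 or limma-voom, and 3 had an unadjusted p under 0.05. Of the 11 listed ligands of the lymphoid receptors, 4 were tested. Ccl25, the ligand of CCR9, stood at 5.55, 6.16 and 7.54 CPM across R/R lungs and at 7.59, 9.16 and 8.20 CPM across WT lungs, each R/R lung below each WT lung (log2 fold change -0.38, adjusted p = 0.308 by edgeR). Cxcl16, the ligand of CXCR6, ranged from 48.9 to 58.9 CPM across R/R lungs and from 48.2 to 49.8 CPM across WT lungs, with a log2 fold change of 0.12. Cxcl13, the ligand of CXCR5, ranged from 0.589 to 0.837 CPM across R/R lungs and from 0.662 to 0.790 CPM across WT lungs. The CCR7 ligands Ccl19, Ccl21a and Ccl21b and the CCR6 ligand Ccl20 were too low to be tested, at 0.179 CPM or less in every lung. Ccl21c had no row in the table.

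Of the 9 listed ligands of the myeloid receptors, 6 were tested, 3 with negative and 3 with positive estimates. Cx3cl1, the ligand of CX3CR1, stood at 99.3, 84.4 and 92.1 CPM across R/R lungs and at 77.1, 83.5 and 78.9 CPM across WT lungs. Each R/R lung lay above each WT lung, the opposite order to its receptor (log2 fold change 0.20, SE 0.07, adjusted p = 0.193 by edgeR). Ccl5, a ligand of CCR1 made by T and NK cells, stood at 12.0, 9.86 and 10.2 CPM across R/R lungs and at 15.7, 9.93 and 19.1 CPM across WT lungs, with WT replicates 1 and 3 high as for Ccr1 (log2 fold change -0.47, adjusted p = 0.301 by edgeR). Ccl6, another CCR1 ligand, had the highest CPM of these ligands and a log2 fold change of 0.07. Ccl2, the main ligand of CCR2, was not tested, at 0.275 to 0.955 CPM in the 6 lungs.

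Downstream of the receptors, all 31 listed signalling genes were tested (G protein subunits, receptor kinases, arrestins, RGS proteins and the machinery of cell movement). The estimates of 22 were negative and of 9 positive, with a median log2 fold change of -0.10, and 1 was called. Rac2, the leukocyte GTPase that drives the leading edge of a moving cell, stood at 45.6, 43.8 and 38.4 CPM across R/R lungs and at 64.6, 51.3 and 64.9 CPM across WT lungs. It fell by 0.50 on the log2 scale (SE 0.10, adjusted p = 0.0321 by edgeR). The adjusted p of Rac2 was 0.11 without R/R replicate 2, 0.0983 without R/R replicate 3 and 0.131 without WT replicate 1. Gnai2, the main inhibitory G protein of leukocytes and the most abundant of the list, had a log2 fold change of -0.09, Arrb1, an arrestin, one of -0.15 and Gnb1, a G protein beta subunit, one of 0.00.

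In bulk lung, fewer cells of a type and less RNA per cell cannot be told apart, so markers of the cells that carry the receptors were measured beside them. All 12 B cell markers had negative estimates, with a median log2 fold change of -0.59, and 6 were called. Among these were Ms4a1, Spib, Cd79a, Pax5 and Fcer2a, and Ms4a1, which encodes CD20, fell by 0.99 on the log2 scale (adjusted p = 0.00675 by edgeR). The summed B cell markers were from 137 to 176 CPM across R/R lungs and from 235 to 297 CPM across WT lungs. All 16 T cell markers also had negative estimates (median -0.44), 9 of them at an unadjusted p of 0.05 and 0 called by edgeR's quasi-likelihood test, whereas DESeq2 called 4 and edgeR's exact test 5 of them. Their sum was from 67.6 to 83.9 CPM across R/R lungs and from 101 to 133 CPM across WT lungs. The summed B and T cell markers were thus lower in every R/R lung than in every WT lung, as were Ccr6 and Ccr7, while Cxcr3, Cxcr5, Cxcr6 and Ccr9 overlapped.

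The markers of myeloid cells did not move one way. All 5 tested neutrophil markers had negative estimates (median -0.84) and an unadjusted p under 0.05. None was called by edgeR's quasi-likelihood test and 1 was by DESeq2, and Ly6g, Camp and Ngp were too low to be tested. Their sum was 203 and 195 CPM in WT replicates 1 and 3 but 74.0 CPM in WT replicate 2, within the 72.8 to 103 CPM of the R/R lungs, which is the pattern of Ccr1. Among 7 classical monocyte markers, Chil3, a chitinase-like protein also made by alveolar macrophages, rose by 0.68 on the log2 scale (adjusted p = 0.0233 by edgeR). Of 7 patrolling monocyte markers, Nr4a1, which is also induced by many stimuli, rose by 0.76 (adjusted p = 0.0148 by edgeR), while 5 had negative estimates. Of these 5, Treml4, Itgal, Spn and Pglyrp1 had an unadjusted p under 0.05, and DESeq2 called 3 genes of the list. Mrc1, the mannose receptor, rose by 0.42 among 7 tested interstitial macrophage markers (adjusted p = 0.0486 by edgeR), and all 7 alveolar macrophage markers had positive estimates, with 0 called and 4 at an unadjusted p of 0.05 (DESeq2 called 1).

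Of the 10 NK cell markers, 4 had negative and 6 positive estimates, with 0 called and 1 at an unadjusted p of 0.05 (DESeq2 called 1). Among 5 tested markers of type 17 and innate lymphoid cells, Areg, a growth factor, rose by 1.66 (adjusted p = 0.0434 by edgeR), and Il17a had no read pair in any lung. None of 8 dendritic cell and 5 tested mature dendritic cell markers was called (0 and 3 at an unadjusted p of 0.05, 0 by DESeq2), nor of 2 tested lymph node markers and 1 tested thymus marker. Of 11 lung epithelium and endothelium markers, 8 had positive and 3 negative estimates, with a median log2 fold change of 0.14. Of these, 4 had an unadjusted p under 0.05, all higher in R/R lungs, and 0 were called (DESeq2 called 2). With a single lung left out, Ms4a1 was called each time. Spib, Cd79a, Pax5, Fcer2a, Chil3, Nr4a1, Areg and Mrc1 lost their call without 1 or more of R/R replicates 1, 2 and 3 and WT replicates 1 and 2, with adjusted p between 0.0513 and 0.198 (edgeR). With all lungs kept, limma-voom did not call Mrc1, Cd79a, Pax5 and Areg (adjusted p = 0.0506, 0.0511, 0.0526 and 0.111). Mrc1 also lost its call without TMM factors (adjusted p = 0.0516 by edgeR), and a minimum of 1 CPM in 3 lungs left both Mrc1 and Cd79a uncalled (adjusted p = 0.0533 and 0.0535 by edgeR).

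**Figure D4:**
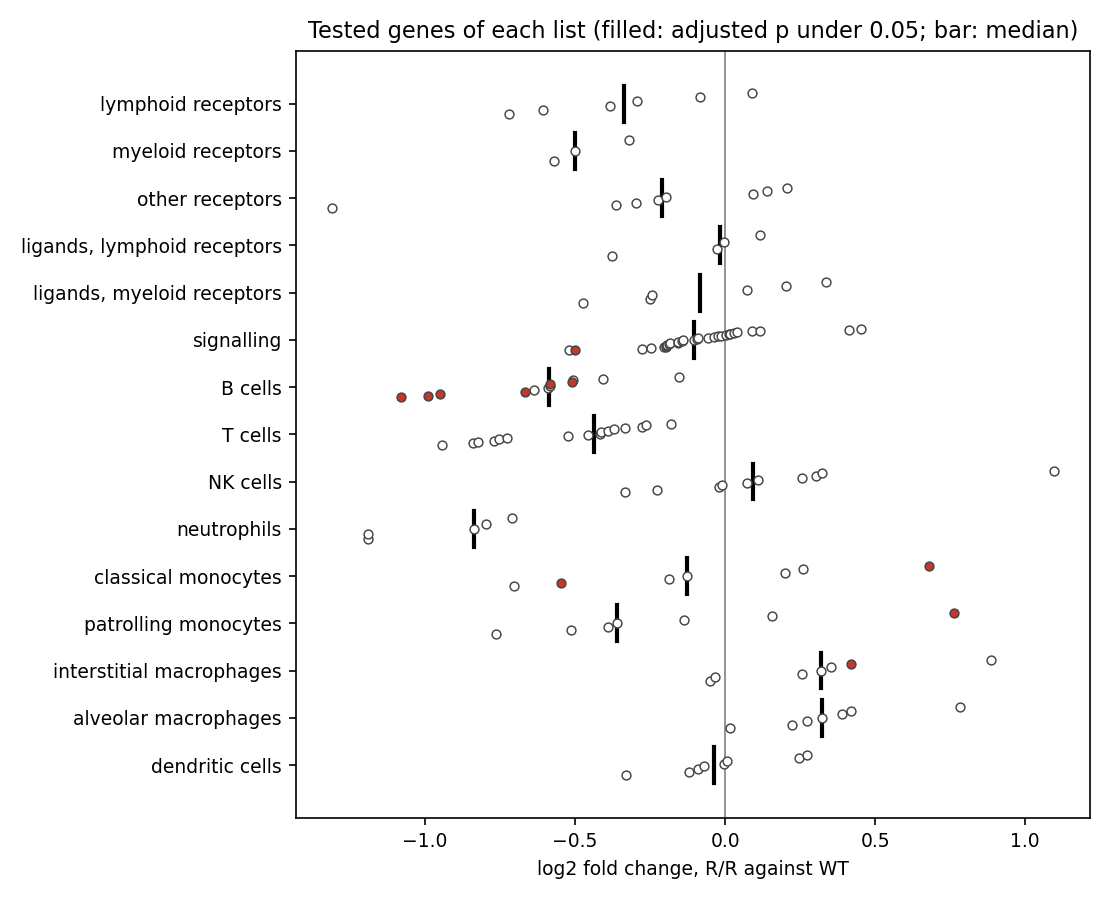
Log2 fold change (x axis, R/R against WT) of the tested genes of the receptor, ligand, signalling and marker lists. Each circle is a gene, filled where its adjusted p was under 0.05 (edgeR), and the bar is the list's median. No receptor circle is filled, B cell, T cell and neutrophil circles all lie below 0, and NK cell circles lie on both sides.

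To relate a receptor to its cells, the log2 CPM of each receptor was taken minus the log2 of the summed CPM of markers of a cell type that carries it. Cxcr5 relative to B cell markers was -5.11, -4.39 and -4.62 in R/R lungs and -5.01, -5.00 and -4.94 in WT lungs, a difference of 0.27 with overlapping lungs (exact permutation p = 0.4). For Ccr6 relative to B cell markers the difference was 0.09 (exact permutation p = 0.8). Both receptors, whose own estimates were negative, therefore overlapped between the genotypes relative to B cell markers.

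Ccr7 relative to T cell markers was -2.76, -2.69 and -2.59 in R/R lungs and -2.79, -2.88 and -3.07 in WT lungs, a difference of 0.23. Every R/R lung lay above every WT lung, the reverse of the order of Ccr7 itself (exact permutation p = 0.1, the smallest possible). Ccr7 was also higher relative to B cell markers, by 0.38, whereas relative to mature dendritic cell markers it differed by -0.45, each without overlap. The mature dendritic cell markers did not move one way, with 3 negative and 2 positive estimates (median -0.09). Socs2, Fscn1 and Cacnb3 had the highest CPM of that list, and it was not trimmed. Whether Ccr7 changed relative to dendritic cells was therefore not settled by this ratio. Ccr9 relative to T cell markers was higher in R/R lungs by 0.59, again without overlap (exact permutation p = 0.1). Cxcr3 differed by -0.23 and Cxcr6 by 0.33, with overlapping lungs (exact permutation p = 0.7 and 0.4).

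For the myeloid receptors the ratio depended on the markers. Ccr2 relative to all 7 classical monocyte markers differed by -0.80 between R/R and WT lungs and Ccr1 by -0.997, each with all R/R lungs lowest (exact permutation p = 0.1). That sum is mostly Chil3, at 582 to 665 CPM in R/R lungs and 340 to 489 CPM in WT lungs. Without Chil3 and Mgst1, the differences were -0.03 for Ccr2 and -0.23 for Ccr1, both overlapping (exact permutation p = 0.9 and 0.6). Relative to neutrophil markers, Ccr1 was higher in R/R lungs by 0.29, with overlap (exact permutation p = 0.3).

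Cx3cr1 relative to patrolling monocyte markers differed by -0.35 (exact permutation p = 0.2). Without Nr4a1 and Ace, the latter abundant in endothelium, the difference was -0.09, and the R/R lungs at -2.60, -2.58 and -2.62 lay within the WT lungs at -2.20, -2.61 and -2.71 (exact permutation p = 0.9). Relative to NK cell markers, Cx3cr1 differed by -0.57, with all R/R lungs lowest (exact permutation p = 0.1). In all, 13 ratios of receptors to full lists and 3 to trimmed lists were computed, and the trimmed lists, the neutrophil and NK cell lists and the B cell and dendritic cell lists for Ccr7 were added after the data were seen. With 3 lungs of each genotype no exact permutation test can go below 0.1, adjusted or not.

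**Figure D5:**
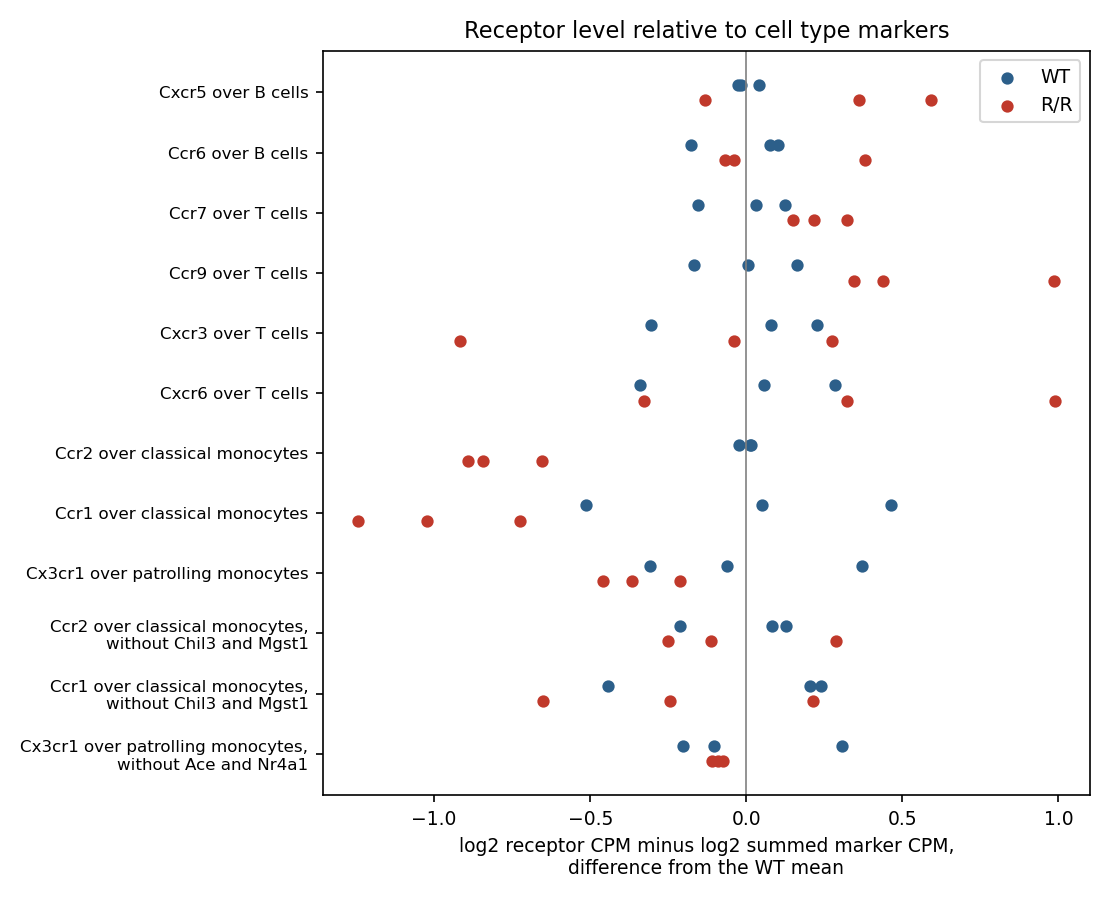
Log2 CPM of a receptor minus log2 summed CPM of a marker list (x axis, as difference from the WT mean), with 1 point per lung, WT in blue and R/R in red. R/R lungs lie above WT lungs for Ccr7 and Ccr9 over T cells. They lie below WT lungs for Ccr2 and Ccr1 over classical monocytes, and overlap them once Chil3 and Mgst1 are left out.

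The genes whose log2 CPM most resembled each receptor over the 6 lungs were listed as a description, since the lungs share genotype and the best of many genes is high by construction. Ccr7 was most like Coro1a (Pearson r = 0.993), a regulator of the actin cytoskeleton in leukocytes, and Dock11, a guanine nucleotide exchange factor. Ccr1 was most like the neutrophil gene S100a8 (r = 0.996). Ccr2 was most like Cd27, a receptor of T and B cells (r = 0.991), and Ccr6 most like Treml2 (r = 0.989), which was itself called lower in R/R lungs (log2 fold change -0.81, adjusted p = 0.0431 by edgeR). Among the receptors, Ccr6 and Cx3cr1 were most alike (r = 0.924) and Ccr9 and Cx3cr1 least (r = -0.478).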

How the data were processed

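RNA from the lungs of 3 R/R and 3 WT mice was sequenced as paired reads, and the sample labels gave group and replicate. The authors mapped reads with HISAT2 2.1.0 to the mouse build mm10 (GRCm38), and the table they deposited holds raw counts, not normalized, of the pairs that featureCounts 2.0.1 assigned to GENCODE M25 genes regardless of strand, and with pairs that map to several places or overlap several genes left out. All 6 deposited columns are whole-number counts, although 1 deposited column had to be entered as estimated counts to pass an automatic reading of the table's comment line, and none was rounded. The sources differ on RNA extraction (Trizol or RNeasy columns) and on the version of featureCounts (that given above is from the file header, and the supplement names another), and the supplement describes stranded sequencing.

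Symbols came from GENCODE M21, matched by gene identifier (55141 of 56262), and gene coordinates from the GENCODE M25 genes that were counted. The filter was filterByExpr of edgeR 4.0.16 in R 4.3.3 (minimum count 10, minimum total 15), followed by TMM scaling, glmQLFit and glmQLFTest. Genes with a p under 0.05 after Benjamini-Hochberg adjustment over all tested genes were called. Single ratios were compared by two-sided exact permutation of log2 CPM (prior count 0.5). Marker, ligand and signalling lists hold known genes. The receptors and lists were chosen with earlier results of these data known, so they give no independent support. Named genes were the 9 receptors, the called genes and the 3 of highest mean CPM of each list, and the 3 genes most like each receptor in Pearson correlation (mean log2 CPM of at least 1), from which those that bear on a receptor are given. Genes outside this rule, such as Xcr1, Cxcl13, Ccl2, Treml4, Spn and Pglyrp1, were picked once their values were known. Some genes are not reported here. The alternatives tried were limma-voom (limma 3.58.1), DESeq2 1.42.0, the exact test of edgeR, upper-quartile factors, no TMM factors, a minimum of 1 count in total or of 1 CPM in 3 lungs, a block for the replicate number, each lung left out, protein-coding genes only, a threshold of 0.1, the mean of logs for markers, and, added after the data were seen, trimmed and further marker lists. The tests were checked on simulated counts. Intervals cover the spread between these lungs.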

Additional observations from a re-analysis of the deposited data

How the results depend on the processing

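Among the 9 receptors, the direction of 7 held under every alternative and with each lung left out. With a lung left out, the log2 fold change of Ccr9 lay between -0.19 and 0.25 and was negative without R/R replicate 2 or WT replicate 1 (-0.04), and that of Cxcr6 lay between -0.55 and 0.24 and was positive without R/R replicate 3 or WT replicate 3 (0.07). No receptor was called with a lung left out. DESeq2 called 1 receptor (Cx3cr1), 541 genes in all and 28 on the other lists. edgeR's exact test called 630 genes in all and 32 on the lists, against 300 and 12 in the reported fit, and with no filter beyond 1 count in total the numbers were 3 receptors (Ccr1, Ccr2 and Cx3cr1), 1109 genes and 52 genes on the lists. The cause was not tested. An adjusted p of 0.1 gave 548 genes. With the replicate number as a block, 1 receptor (Cx3cr1, adjusted p = 0.0299, edgeR) and 22 list genes were called, of 446 in all. Same-numbered lungs did not deviate together (correlations -0.014, -0.0036 and -0.015), and no lung correlated best with its own number. With 3 lungs of each genotype, these values cannot decide whether the numbers pair the mice. Leaving out a lung gave 65 to 621 genes and 3 to 21 on the lists. The lymphoid and myeloid medians moved by less than the spread between lungs. Relative to classical monocyte markers, the mean of logs gave -0.25 for Ccr2 and -0.45 for Ccr1, and leaving out Chil3 and Mgst1 gave -0.026 and -0.23. Relative to their full marker lists, the differences of Ccr6, Cxcr3 and Cxcr6 changed sign with 1 lung left out (-0.05 to 0.17, -0.48 to 0.12 and -0.0033 to 0.66). limma-voom called 8 genes on the lists. Read pairs were fewest for Ccr6, Ccr9, Cxcr3 and Cxcr6 (17 to 70 a lung), and counting error was not separated from the spread between lungs.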
